A study of Homo sapiens with 24 samples.

Results

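The MYC and MXD network is a set of transcription factors that compete for one partner, MAX. Its members were taken by gene symbol, and comprised the MYC family (MYC, MYCN, MYCL), the common partner MAX, and the MAX-binding repressors MNT, MXD1, MXD3, MXD4 and MXI1. These are 9 of the 60448 symbols in the expression tables, all 9 among the 19208 symbols classed as protein-coding.

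MYC proteins bind DNA only when paired with MAX, and the pairs activate genes of ribosome production, metabolism and cell cycle entry that carry the E-box motif. MXD proteins and MNT also pair with MAX, bind the same motif and recruit the SIN3 corepressor, so that the same genes are repressed. Growing cells are known to hold much MYC, while MXD1 is known as a gene that rises when cells such as keratinocytes and myeloid cells leave the cycle and differentiate. The RAF, MEK and ERK kinases are known to stabilize MYC protein, a level of control that RNA data do not show.

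RNA was sequenced from 2 immortalized human prostate epithelial lines, BPH-1 (immortalized with SV40 large T antigen) and RWPE-1 (immortalized with human papillomavirus 18). Both had been transduced with a lentivirus in which a ubiquitin promoter drives wild-type C-Raf, so the extra kinase is not under its own promoter, or with the vector alone. The metastasis-derived lines came from tumors that formed in immunodeficient NSG mice after C-Raf cells were injected into the heart, and were grown in culture for about a week before RNA was taken. All groups carried the vector with its luciferase and fluorescent reporters. Both cell lines are described as carrying a secreted Gaussia luciferase as well, but only the BPH-1 vector and C-Raf titles name it.

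There were 3 BPH-1 vector control, 3 BPH-1 C-Raf and 6 BPH-1 metastasis-derived libraries, and 1 RWPE-1 vector control, 4 RWPE-1 C-Raf and 7 RWPE-1 metastasis-derived libraries, 24 in all. The labels do not say that every metastasis-derived library is a separate line or came from a separate mouse, and LN1A with LN1B, and the pair numbered R075, share a number. The labels do not say that the replicates came from separate cultures, so p-values measure the spread between these samples, which may be technical. The BPH-1 metastasis-derived libraries stood in another table than the other BPH-1 libraries. Their titles also do not carry the Gaussia luciferase tag of the other BPH-1 libraries. Stage, table and any difference in this reporter cannot be told apart there. The 12 RWPE-1 libraries were split over 2 tables, one with the vector control, C-Raf library 1 and metastasis-derived lines LN1A, LN1B and Spine, the other with C-Raf libraries 2 to 4 and lines Spine2, Bone4, Bone5 and Bone6. For the BPH-1 lines numbered R075 the labels name different sites, so no site was used for them.

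The depth of 21 libraries was 20565835 to 41989693 protein-coding counts, and 3 BPH-1 metastasis-derived libraries (R071, R074 and the R075 library titled bone) held only 111176 to 464739, with 93.29% to 97.55% of all counts on the RNA gene RN7SL1. Those 3 were left out of all tests and are described apart. RN7SL1 took lower shares in the rest of that group, 13.11% (R069), 30.28% (R072) and 4.60% (R075), against at most 0.00932% elsewhere. Protein-coding genes held 69.96% (R069), 38.91% (R072) and 83.73% (R075) of all counts, against 97.17% to 98.14% in the other deep libraries. The scaling factor of R072 also stood apart, at 0.589 against 0.942 to 1.10 in the other 20 libraries. Levels are CPM of protein-coding counts, that is counts scaled to the library total, with TMM scaling. Of the markers of prostate epithelium, the basal keratin KRT5 (697 to 6841 CPM) and the basal regulator TP63 (146 to 363 CPM) were high in all 21 libraries, while the secretory luminal marker KLK3 was 0 in all 21 and the luminal keratin KRT8 ran from 84.4 to 1421 CPM.

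RefSeq promoter windows (GRCh38.p14, 250 bases before to 50 after each start) matched 8 of the 9 members, all except MYC, with 11 windows in all. The core E-box, CACGTG, which reads the same on both strands, was present in 2 of the 11 windows, those of MXD4 and MNT, and in 7.26% of all 35116 promoter windows. The AP-1 motif TGACTCA, searched on both strands, was in 1 window, that of MXD3, and in 4.95% of all. The upstream bases of MXD1 (chr2:69914859-69915108, plus strand) and MXD4 (chr4:2262110-2262359, minus strand) are shown because these 2 repressors moved in opposite directions in the comparisons that follow, and a stretch from MNT (chr17:2401228-2401273, minus strand) because it holds the other E-box. Capitals mark the E-box, which begins 238 bases before the start in MXD4 and 193 bases before it in MNT.
MXD1: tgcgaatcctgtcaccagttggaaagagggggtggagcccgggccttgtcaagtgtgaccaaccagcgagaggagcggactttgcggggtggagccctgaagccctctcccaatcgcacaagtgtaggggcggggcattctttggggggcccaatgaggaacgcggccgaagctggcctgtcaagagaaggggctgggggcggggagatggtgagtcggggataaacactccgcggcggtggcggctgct
MXD4: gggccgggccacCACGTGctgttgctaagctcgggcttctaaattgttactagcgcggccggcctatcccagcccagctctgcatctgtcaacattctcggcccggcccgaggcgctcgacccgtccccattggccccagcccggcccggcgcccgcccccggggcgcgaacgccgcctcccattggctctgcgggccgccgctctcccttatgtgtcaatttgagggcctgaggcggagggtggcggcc
MNT: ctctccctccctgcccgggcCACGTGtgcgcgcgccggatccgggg
No E-box letters stood in the MXD1 window. A match is a description of the letters and not a measured binding site.

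The 9 genes lie on 8 chromosomes (GENCODE version 29, GRCh38). MYC lies at chromosome 8, 127735434-127741434, MYCN at chromosome 2, 15940564-15947007, and MYCL at chromosome 1, 39895426-39902256. MAX lies at chromosome 14, 65006174-65102695, and MNT at chromosome 17, 2384060-2401118. MXD1 lies at chromosome 2, 69897688-69942945, MXD3 at chromosome 5, 177301461-177312757, MXD4 at chromosome 4, 2247432-2262294, and MXI1 at chromosome 10, 110207605-110287365. The use of strand in counting is not stated. Reads cannot then be told apart where a gene overlaps MAX (FNTB), MYCN (MYCNOS), MNT (AC006435.1), MXI1 (AL360182.2) MYCL (AL033527.2) or MXD3 (PRELID1, which lies inside it) on the opposite strand, or where SNRNP27 overlaps MXD1 and RAB24 overlaps MXD3 on the same strand.

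Of the 9 members, 8 passed the filter on low counts and were tested. Adjusted p-values are Benjamini-Hochberg values over all protein-coding genes tested, from edgeR's quasi-likelihood test unless another tool is named, with 0.05 as the threshold, and fold changes are on the log2 scale with the standard error (SE).

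The first comparison asked what C-Raf overexpression changed in BPH-1 cells before any passage through a mouse. Here 4 of the 8 tested members passed the threshold, in a comparison in which 59.8% of all 13223 genes did (30.4% higher and 29.4% lower). MYC and MXD1 rose, and MXD3 and MXD4 fell. The biological coefficient of variation between these libraries was only 2.43%, so small differences passed.

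MYC, the broadly expressed growth regulator, stood at 400.2, 389.8 and 396 CPM in the BPH-1 vector controls and at 496, 492.7 and 513 CPM in the BPH-1 C-Raf cells. The groups did not overlap. MYC was 0.35 higher on the log2 scale (SE 0.03, adjusted p = 6.0e-12), which is 1.27-fold.

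MXD1, which pairs with MAX to repress, stood at 12.3, 12.9 and 12.3 CPM in the BPH-1 vector controls and at 21.3, 21.3 and 21.6 CPM with C-Raf. Every C-Raf library was above every control. The difference was 0.78 (SE 0.06, adjusted p = 1.7e-12), or 1.72-fold, so the repressor and the activator rose together and MXD1 by the larger fold.

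MXD3, a repressor known from cells in S phase, stood at 9.17, 9.40 and 9.48 CPM in the vector controls and at 6.09, 5.85 and 7.66 CPM with C-Raf. It fell by 0.52 on the log2 scale (SE 0.09, adjusted p = 1.9e-05), without overlap. MXD4, another MXD repressor, stood at 11.8, 12.4 and 11.98 CPM and then at 8.90, 9.06 and 9.87 CPM. It fell by 0.37 (SE 0.07, adjusted p = 5.9e-05), also without overlap.

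The other 4 tested members overlapped between the BPH-1 vector and C-Raf groups. MAX, the shared partner, was at 55.4, 48.6 and 52.3 CPM against 54.0, 51.1 and 53.5 CPM (log2 difference 0.02, SE 0.04). MNT, known as the broadly expressed repressor of the network, was at 41.7, 38.9 and 41.6 CPM against 40.8, 37.8 and 37.96 CPM (−0.06, SE 0.04). MXI1, a further MXD repressor, was at 21.1, 19.5 and 19.985 CPM against 20.3, 17.3 and 19.7 CPM (−0.08, SE 0.06). MYCL, a MYC family member with restricted expression, was at 6.82, 6.64 and 6.06 CPM against 5.89, 5.65 and 6.41 CPM (−0.12, SE 0.09). Their adjusted p-values ran from 0.20 (MNT) to 0.63 (MAX). With library totals alone, without TMM factors, MNT (−0.12, adjusted p = 0.016) and MXI1 (−0.13, adjusted p = 0.049) also passed and MAX turned sign at −0.032. That scaling changed the split of all calls from 4015 higher and 3889 lower to 2947 higher and 4931 lower.

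**Figure D1:**
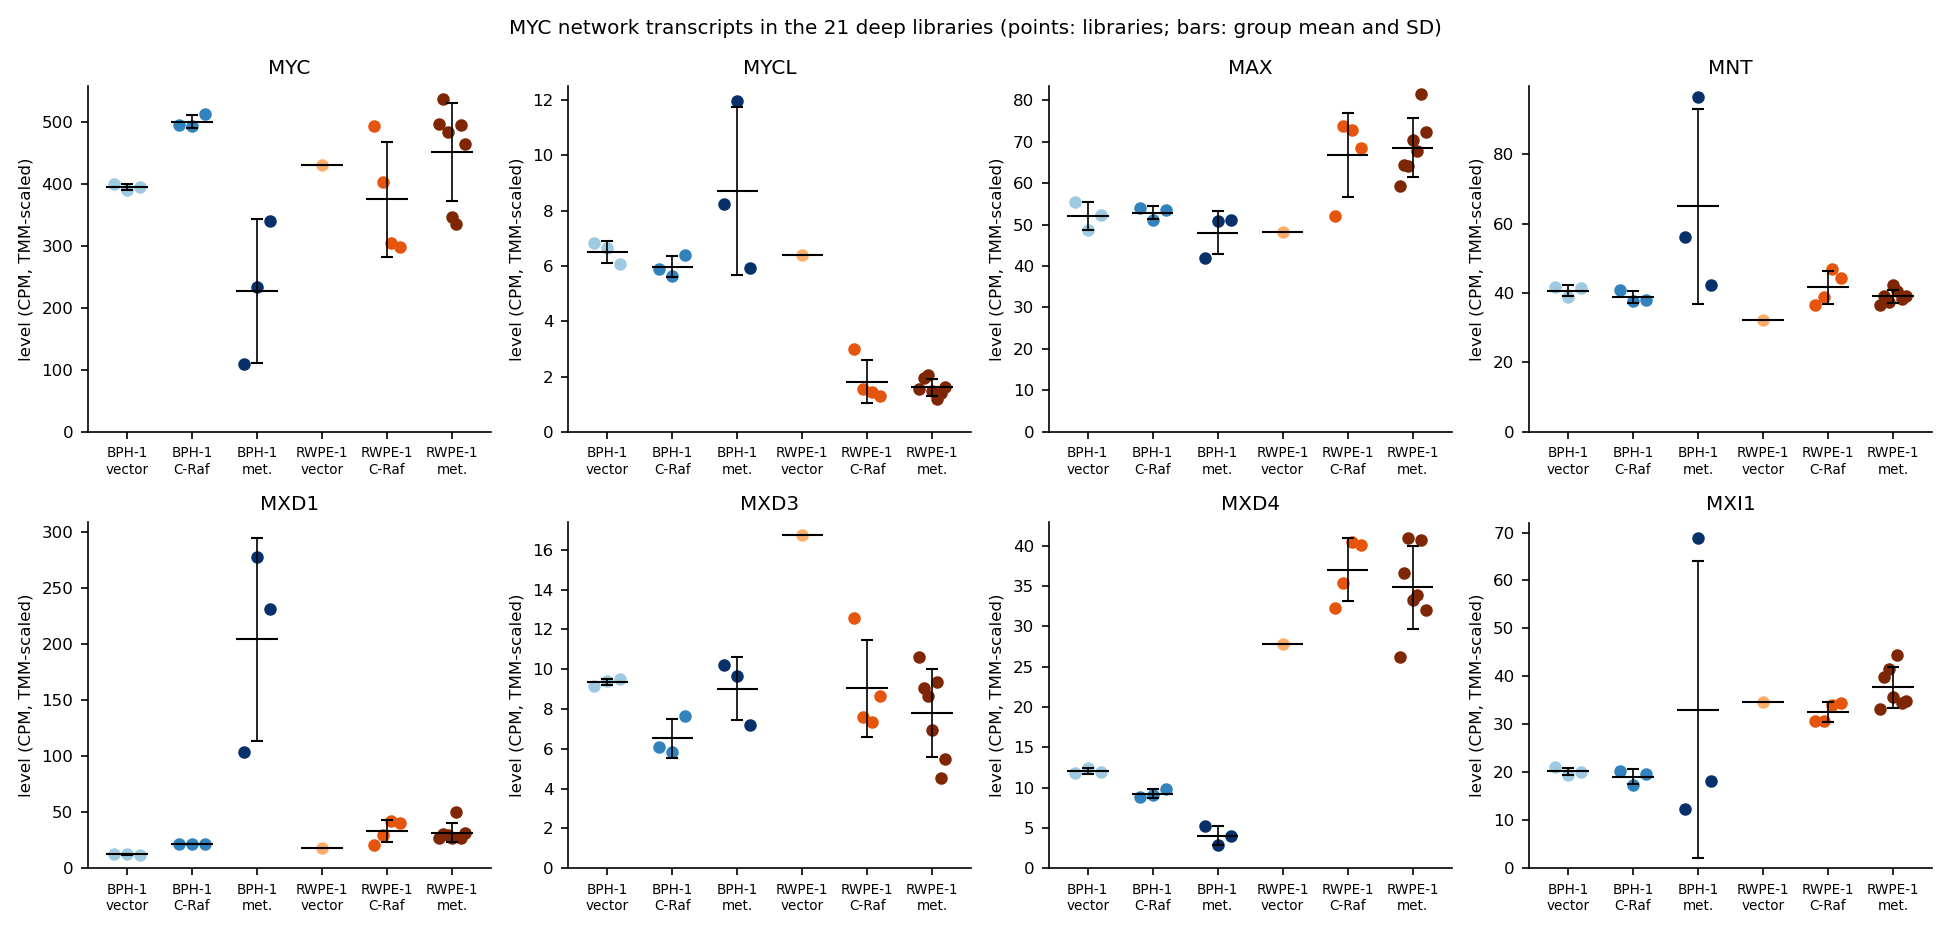
Levels of 8 members (TMM-scaled CPM, y axis from 0) in the 21 deeply sequenced libraries by cell line and stage (x axis). Points are libraries, and bars give the group mean and SD (no SD for the single RWPE-1 vector library). MXD1 lay between 103 and 277 CPM in the BPH-1 metastasis-derived lines and at or below 50.2 CPM in every other library.

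MYCN, the family member known from neural and neuroendocrine tumors, had 0 to 5 counts in each of the 24 libraries and did not pass the filter. The highest level was 0.413 CPM, in R072. MYC accounted for 95.5% to 99.8% of the summed per-kilobase level of the 3 MYC family genes in every deep library.

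The second comparison set the BPH-1 metastasis-derived lines against the BPH-1 C-Raf cells. The labels do not say that the lines came from these same cultures. Of the 8 tested members 2 passed, MXD1 upward and MXD4 downward, where 37.7% of 13446 genes passed (20.9% higher and 16.8% lower). With 1 library left out, 1 member passed without any of the C-Raf libraries (MXD1, with 1958 to 2093 genes called) and 6 passed without R075, MYC, MNT, MYCL and MXD3 besides these 2 (6894 genes called). The highest number of genes called was 8303, without R072. These 3 lines differed more among themselves than the parental libraries did. The biological coefficient of variation was 35.3% in this fit, a single value over the lines and the C-Raf libraries together. It was 41.4% without any 1 of the C-Raf libraries and 20.2% without R072.

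MXD1 stood at 103, 277 and 232 CPM in R069, R072 and R075, against 21.3 to 21.6 CPM in the BPH-1 C-Raf cells. The 3 lines were 4.83-fold, 12.9-fold and 10.8-fold above the C-Raf mean, and no library overlapped. Without TMM factors they were 4.59-fold, 7.20-fold and 9.62-fold above it, so the order of R072 and R075 turned. The fitted difference was 3.32 on the log2 scale (SE 0.40, adjusted p = 0.0029), or 9.98-fold. It passed under every alternative run, and leaving out any 1 library gave 2.99 to 3.64.

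MXD4 moved the other way, at 5.25 CPM in R069, 2.89 CPM in R072 and 4.02 CPM in R075. All were below the 8.90 to 9.87 CPM of the C-Raf cells. MXD4 fell by 1.13 (SE 0.26, adjusted p = 0.018), and this call was lost without any 1 of the 3 C-Raf libraries (adjusted p = 0.074 to 0.084). The direction of MXD4 was downward at each BPH-1 step, from 12.1 ± 0.33 CPM (SD, n = 3) in the vector controls to 9.27 ± 0.52 with C-Raf and 4.06 ± 1.18 in the metastasis-derived lines.

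MYC stood at 109 CPM in R069, 234 CPM in R072 and 339 CPM in R075. All 3 were below each of the C-Raf cells (492.7 to 513 CPM) and below each of the vector controls (389.8 to 400.2 CPM). The spread was wide, and the difference of −1.08 (SE 0.40) did not pass (adjusted p = 0.077). DESeq2 called it (−1.06, adjusted p = 0.031), as did the fit without R075 (−1.47, adjusted p = 0.025) and library totals alone (−1.49, adjusted p = 0.040).

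MNT was 56.2, 96.5 and 42.3 CPM in R069, R072 and R075, each above the C-Raf range of 37.8 to 40.8 CPM, with a difference of 0.81 (SE 0.33, adjusted p = 0.097, and 0.024 without R075). Without TMM factors MNT in R075, at 39.8 CPM, was below the C-Raf range of 40.2 to 42.8 CPM. MXI1 was split, at 12.3 CPM in R069, 68.8 CPM in R072 and 18.2 CPM in R075. Its log2 difference was 0.87 (SE 0.65, adjusted p = 0.32), and without R072 it was −0.30. MYCL was 8.25, 11.97 and 5.94 CPM (0.61, adjusted p = 0.17, and 0.033 without R075), and MXD3 was 10.2, 9.66 and 7.21 CPM (0.53, adjusted p = 0.14, and 0.034 without R075). MAX was 42.0, 50.9 and 51.1 CPM (−0.08, SE 0.16). With TMM scaling R072, the library with the factor of 0.589, had the highest MXD1, MNT, MXI1 and MYCL and the lowest MXD4 of the 3. Without TMM factors MXI1 was still highest (40.5 CPM) and MXD4 lowest (1.70 CPM) in R072, while MXD1 was highest in R075 (218 CPM against 163 CPM in R072), MYCL was highest in R069 (8.32 CPM against 7.05 CPM) and MNT was level in R069 and R072 (56.65 and 56.84 CPM).

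Without TMM factors the median of all genes in this comparison moved from 0.07 to −0.30, and the calls from 2816 higher and 2256 lower to 1622 and 2403. MXD1 then stood at 2.84 (adjusted p = 0.0028) and MXD4 at −1.44 (adjusted p = 0.042), so both calls held, while MNT was 0.31 and MAX −0.48. Other features moved with the metastasis-derived lines as well. The summed level of the 5 basal markers was 11318 to 11853 CPM in the 3 lines and 4473 to 4586 CPM in the C-Raf cells, and that of the 7 luminal and general epithelial markers was 592 to 997 CPM against 2442 to 2501 CPM. The summed 5 fibroblast markers were 51.4 to 71.1 CPM against 11.3 to 11.5 CPM, nearly all COL1A1, with the defining markers DCN at or below 0.0383 CPM and COL3A1 at or below 0.529 CPM. The summed 3 endothelial markers were 2.53 to 40.9 CPM against 1.57 to 1.62 CPM, nearly all VWF, with PECAM1 at or below 0.413 CPM. The 5 haematopoietic markers summed to 5.86 to 23.4 CPM against 25.96 to 28.9 CPM, nearly all CD68, with PTPRC at or below 0.0383 CPM. The part of these differences, and of the RN7SL1 and protein-coding shares, in the MXD1 and MXD4 results was not tested. In bulk RNA a change in the number of cells of a type and a change in RNA per cell cannot be told apart. In the RWPE-1 metastasis-derived lines COL3A1 reached 22.02 CPM and DCN 7.37 CPM, against at most 0.0843 and 0.590 CPM in RWPE-1 C-Raf cells. The lowest values in those lines were 0 for COL3A1 and 0.122 CPM for DCN. PTPRC was 0 and PECAM1 at or below 0.133 CPM there. The counts are on human genes (hg38), and the presence of mouse cells in any line was not tested.

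The 3 low-depth BPH-1 lines were examined by their counts alone, with exact Clopper-Pearson 95% intervals that cover counting error only. MXD1 had 119 counts in R071, or 256 CPM (212 to 306), and 41 counts in R074, or 310 CPM (222 to 420.1). Both were above the BPH-1 C-Raf mean, which was 22.7 CPM on the same unscaled basis. In the low-depth R075 library MXD1 had 0 counts, which allows up to 33.2 CPM by the interval (27.0 CPM by a limit of 3 counts). MYC had 24 counts in R071, or 51.6 CPM (33.1 to 76.8), 6 counts in R074, or 45.3 CPM (16.6 to 98.6), and 0 counts in R075, against 530.2 CPM in the C-Raf cells. On these few counts MYC was below the C-Raf mean in all 3, and MXD1 above it in 2 of the 3. Protein-coding genes held only 0.270% to 5.14% of all counts there, so these CPM may not compare with those of deep libraries. In the low-depth R075 library the MXD1 interval reaches above the C-Raf mean, so no difference from that mean can be shown. Its upper limit of 33.2 CPM lies below the 104 to 218 CPM of MXD1 in the 3 deep lines, also unscaled.

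MAX behaved unlike any deep library in these 3, with 556, 62 and 220 counts in R071, R074 and R075, or 1196, 468 and 1979 CPM, against 42.0 to 81.5 CPM (TMM-scaled) in the 21 deep libraries. MXD4 had 5, 0 and 0 counts, MXD3 0, 3 and 0, MYCL 5, 0 and 0, MNT 13, 20 and 3, and MXI1 31, 7 and 11. With the 3 libraries in the fit, MXD1 kept its call (3.46, adjusted p = 0.019), MXD4 did not (−0.94, adjusted p = 0.33), MYC was −1.86 (adjusted p = 0.10) and MAX 4.38 (adjusted p = 0.060).

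**Figure D2:**
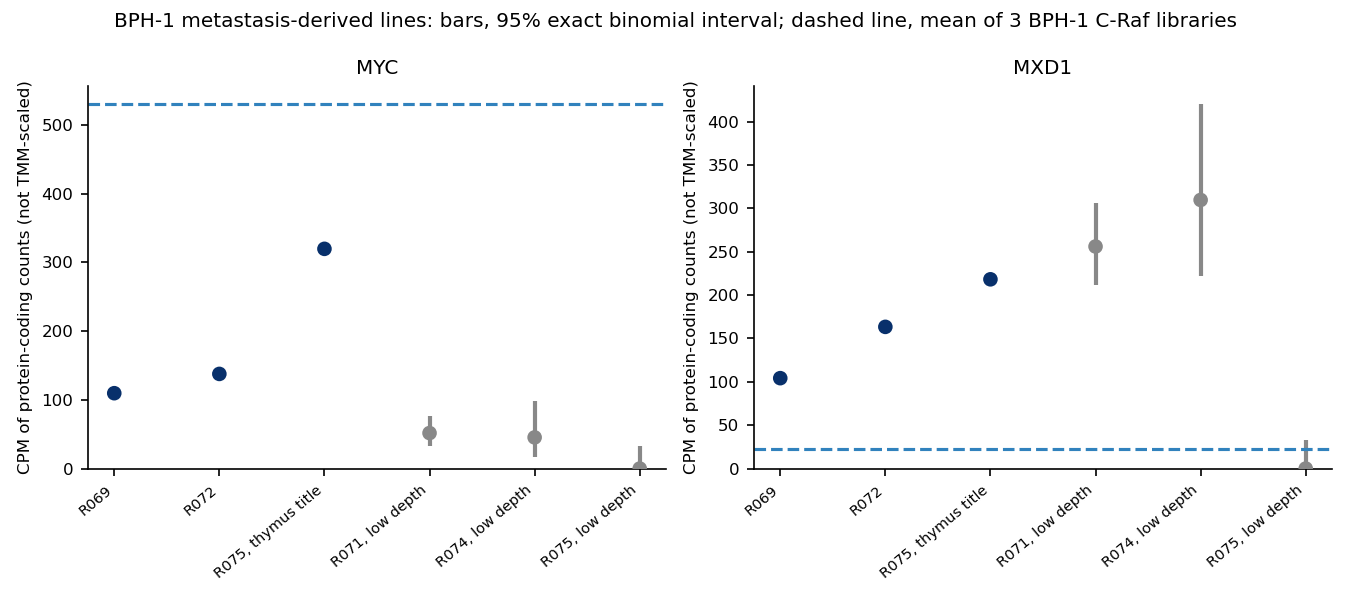
MYC and MXD1 (CPM of protein-coding counts without TMM scaling, y axis) in the 6 BPH-1 metastasis-derived lines (x axis). Bars are 95% exact binomial intervals, narrow for the deep lines, with the 3 low-depth lines in grey. The dashed line is the mean of the 3 BPH-1 C-Raf libraries. MYC lay below the dashed line in all 6, and MXD1 above it in 5, with the low-depth R075 library at 0 counts. The 3 low-depth lines rest on 0 to 24 counts of MYC and 0 to 119 counts of MXD1.

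The same step in RWPE-1 was tested with 7 metastasis-derived lines against 4 C-Raf libraries. None of the 8 tested members passed by edgeR, and 0.0986% of 13180 genes did (0.0759% higher and 0.0228% lower). At an unadjusted p under 0.05 there was 1 member, MXI1, and DESeq2 called 0 members. MXI1 was 30.8, 30.6, 34.1 and 34.5 CPM in the C-Raf libraries and 33.1 to 44.4 CPM (median 35.7) in the metastasis-derived lines (0.21, SE 0.09, adjusted p = 0.59), with overlap.

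MYC was 494, 403, 305 and 298.0 CPM in RWPE-1 C-Raf libraries 1 to 4, and 334.5 CPM at the lowest, 484 CPM at the median and 536 CPM at the highest in the metastasis-derived lines. The groups overlapped (0.27, SE 0.17, adjusted p = 0.74). MXD1 was 21.2, 29.7, 41.8 and 40.8 CPM in the C-Raf libraries and 26.7, 29.8 and 50.2 CPM (lowest, median, highest) in the metastasis-derived lines (−0.07, SE 0.21, adjusted p = 0.96). The 3 RWPE-1 libraries with the lowest MYC, C-Raf 4, C-Raf 3 and Bone4, were also the 3 with the highest MXD1, as a description of these 12 libraries.

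MXD4 ran from 32.3 to 40.4 CPM in RWPE-1 C-Raf cells and from 26.2 to 41.0 CPM in the metastasis-derived lines (−0.09, SE 0.12). MNT ran from 36.6 to 46.8 CPM and from 36.6 to 42.4 CPM (−0.10, SE 0.07), and MAX from 52.2 to 73.8 CPM and from 59.4 to 81.5 CPM (0.04, SE 0.10). MXD3 ran from 7.36 to 12.6 CPM and from 4.54 to 10.6 CPM (−0.21, SE 0.24), and MYCL from 1.28 to 2.999 CPM and from 1.205 to 2.04 CPM (−0.18, SE 0.26). All 5 overlapped between the groups, and none passed.

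By site, MYC in the RWPE-1 lines was 497 and 536 CPM in the lymph node lines LN1A and LN1B, 484 and 347 CPM in the spine lines Spine and Spine2, and 334.5, 494 and 465 CPM in Bone4, Bone5 and Bone6. MXD1 was 26.7 and 30.5 CPM in the lymph node lines, 29.8 and 27.2 CPM in the spine lines, and 50.2, 26.9 and 31.8 CPM in the bone lines. Neither gene separated bone from the other sites. Site and table overlap in part, since the lymph node lines stand in one table and the bone lines in the other.

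The interaction term of a fit over 14257 genes tested whether the metastasis effect differed between the cell lines, and 4 of the 8 members passed, where 44.5% of genes did (23.5% higher and 21% lower). It rests on the same BPH-1 libraries as the comparison within BPH-1. The spread in this fit was shared over both cell lines, with a biological coefficient of variation of 28.4%, against 35.3% in the BPH-1 fit. MYC and MNT, which passed here, did not pass within BPH-1 (adjusted p = 0.077 and 0.097). MXD1 differed by 3.33 (SE 0.41, adjusted p = 1.3e-05) and MNT by 0.85 (SE 0.26, adjusted p = 0.014), both toward higher in BPH-1. MYC differed by −1.39 (SE 0.39, adjusted p = 0.0083) and MXD4 by −1.07 (SE 0.24, adjusted p = 0.0022), both toward lower in BPH-1. The MNT call was lost without TMM factors (0.44, adjusted p = 0.092), which changed the calls over all genes from 3349 higher and 2999 lower to 2140 and 3585. The MXD4 call was lost with the 3 low-depth libraries in the fit (−0.91, adjusted p = 0.083).

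**Figure D3:**
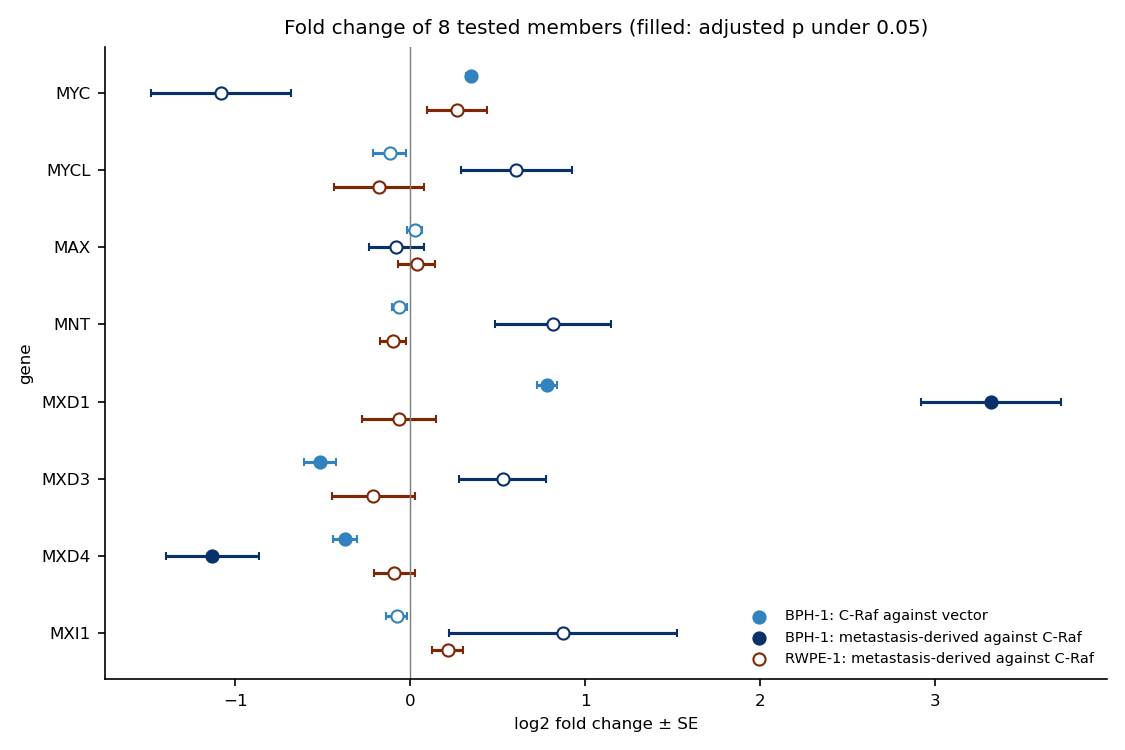
Log2 fold change with SE (x axis) of the 8 tested members (y axis) for C-Raf against vector in BPH-1 and for metastasis-derived lines against C-Raf cells in each cell line. Filled points passed the adjusted p threshold of 0.05. MXD1 rose at both BPH-1 steps, by 0.78 and 3.32, and was −0.07 in RWPE-1.

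Before metastasis the 2 cell lines already differed. Among C-Raf cells, 3 of the 8 members passed between RWPE-1 and BPH-1, where 56.2% of 14257 genes did (28.9% higher and 27.3% lower). The test came from the same fit as the interaction, so the spread of the metastasis-derived lines also entered its SE and p-values. The cell lines were grown in different media and stand in different tables, so cell line, medium and table cannot be told apart. MXD4 was 37.1 ± 3.93 CPM (SD, n = 4) in RWPE-1 C-Raf cells and 9.27 ± 0.52 (SD, n = 3) in BPH-1 C-Raf cells, a difference of 2.001 (SE 0.19, adjusted p = 2.5e-07). MYCL was 1.82 ± 0.79 CPM against 5.98 ± 0.39 CPM (−1.71, SE 0.30, adjusted p = 1.7e-04). MAX was 66.8 ± 10.0 CPM against 52.9 ± 1.54 CPM (0.34, SE 0.13, adjusted p = 0.038), a call that 11 of the alternatives did not keep and whose groups overlapped. MXD1 (0.64, adjusted p = 0.081) and MXI1 (0.77, adjusted p = 0.097) were higher in RWPE-1 in mean but did not pass, and MYC was −0.41 (adjusted p = 0.22). MXI1 did not overlap between the groups, at 30.6 to 34.5 CPM in RWPE-1 and 17.3 to 20.3 CPM in BPH-1. With 1 library left out, MXD1 and MXI1 each passed in 2 of 17 fits (lowest adjusted p = 0.036 and 1.3e-04).

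RWPE-1 had 1 vector control library, so no test of C-Raf was made within that line. Setting aside MYCN, the vector library lay below all 4 C-Raf libraries for 4 members, inside their range for 1 and above it for 3, and 60.3% of 13180 genes lay outside that range. MXD1 was 17.8 CPM in the vector library and 21.2 to 41.8 CPM with C-Raf. MXD3 was 16.8 CPM in the vector library and 7.36 to 12.6 CPM with C-Raf, and MYCL was 6.39 CPM and 1.28 to 2.999 CPM. MAX (48.3 CPM), MNT (32.3 CPM) and MXD4 (27.9 CPM) in the vector library lay below the C-Raf range, MYC (431 CPM) inside it, and MXI1 (34.7 CPM) just above it. C-Raf library 1, which shares its table with the vector control, was the C-Raf library nearest to it for MXD1, MXD3, MYCL, MAX, MNT and MXD4, so C-Raf and table cannot be fully told apart.

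MXD1 was higher and MXD3 lower with C-Raf in both cell lines in mean. MXD4 was not alike, since C-Raf cells had less of it in BPH-1 (−0.37) and more in RWPE-1 (27.9 CPM in the vector library, 32.3 to 40.4 CPM with C-Raf), and this difference was not tested.

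Across the 6 groups MYC was ordered BPH-1 C-Raf (500.3 ± 10.7 CPM), RWPE-1 metastasis-derived (451 ± 78.6), RWPE-1 vector (431), BPH-1 vector (395 ± 5.21), RWPE-1 C-Raf (375 ± 92.7) and BPH-1 metastasis-derived (227 ± 115). Only RWPE-1 vector and BPH-1 vector were neighbours without overlap. MXD1 was ordered BPH-1 metastasis-derived (204 ± 90.2 CPM), RWPE-1 C-Raf (33.4 ± 9.80), RWPE-1 metastasis-derived (31.9 ± 8.33), BPH-1 C-Raf (21.4 ± 0.17), RWPE-1 vector (17.8) and BPH-1 vector (12.5 ± 0.37), and of these neighbours only RWPE-1 C-Raf and RWPE-1 metastasis-derived overlapped. Over the 21 deep libraries the highest level was 22.6 times the lowest for MXD1, 14.2 times for MXD4, 9.93 times for MYCL, 5.57 times for MXI1, 4.94 times for MYC and 1.94 times for MAX.

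To set activators against repressors, levels per kilobase of exon were summed, as only these compare between genes. The ratio of the MYC family to the MXD family with MNT was 9.15 ± 0.02 (SD, n = 3) in BPH-1 vector controls and 11.5 ± 0.37 (SD, n = 3) in BPH-1 C-Raf cells. It was 1.35 in R069, 1.12 in R072 and 2.42 in R075, below every other deep library. In RWPE-1 it was 6.83 in the vector library, 3.78 to 7.79 in the C-Raf libraries and 3.88 to 7.77 in the metastasis-derived lines. A ratio within a library does not depend on the scaling.

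MXD1 made up 13.6% ± 0.59 (SD, n = 3) of the summed repressor RNA in BPH-1 vector controls, 23.2% ± 0.87 in C-Raf cells, and 57.9%, 60.7% and 77.2% in R069, R072 and R075. In RWPE-1 its share was 13.2% in the vector library, 15.7% to 24.8% with C-Raf and 18.4% to 27.5% in the metastasis-derived lines. The per-kilobase ratio of MYC to MXD1 was 66.8 ± 2.72 in BPH-1 vector controls, 49.4 ± 0.66 with C-Raf, and 2.23, 1.78 and 3.10 in the 3 metastasis-derived lines. In RWPE-1 libraries MXI1 was the largest repressor share at 27.9% to 35.5%, while MNT (32.1% ± 0.84) and MXI1 (30.1% ± 0.78) led in BPH-1 vector controls. MXD4 made up 0.569% to 2.65% of the repressor RNA in the BPH-1 metastasis-derived lines and 16.7% to 25.4% in RWPE-1.

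**Figure D4:**
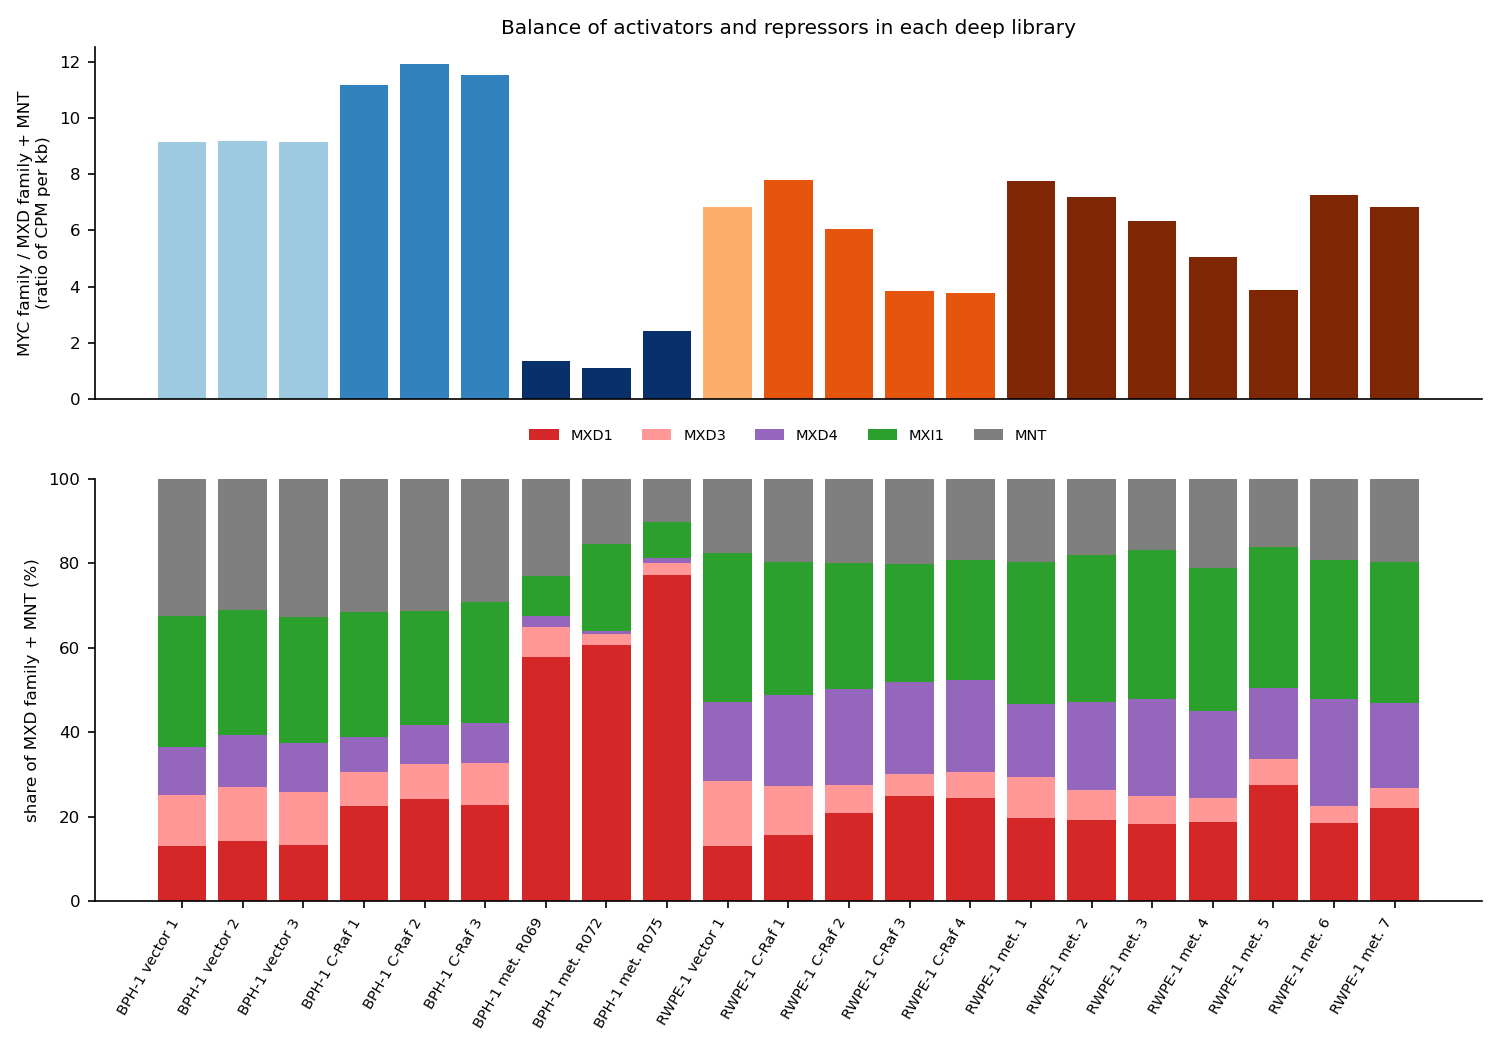
Per-kilobase balance in each of the 21 deep libraries (x axis). The upper bars give the ratio of the MYC family to the MXD family with MNT, and the lower bars the share (%) of each repressor in their sum. The ratio was 1.12 to 2.42 in the BPH-1 metastasis-derived lines and 3.78 or more in every other library.

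A model over both cell lines with terms for line and stage called none of the members, for C-Raf against vector (0.814% of 15226 genes called, 0.420% higher and 0.394% lower) or for metastasis-derived against C-Raf (2.50% called, 1.77% higher and 0.736% lower). At an unadjusted p under 0.05 there were 3 and 2 members, and DESeq2 called 0 in both. For C-Raf against vector these were MXD1 (1.40, adjusted p = 0.43), MXD3 (−0.55, adjusted p = 0.48) and MYCL (−0.75, adjusted p = 0.51), and a fit of these 2 stages alone called MXD1 (0.83, adjusted p = 0.011) and MXD3 (−0.65, adjusted p = 0.027). For metastasis-derived against C-Raf they were MXD1 (1.14, adjusted p = 0.14) and MXD4 (−0.42, adjusted p = 0.18). The model gave both cell lines the same stage effects, although the MXD1 metastasis effect differed between them by 3.33 in the interaction fit. The pooled 1.40 of MXD1 with C-Raf lay above 0.78 within BPH-1 and 0.91 in RWPE-1 (log2 of C-Raf mean over vector library).

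The wider network comprises MLX, which pairs with some of the MXD proteins and with the glucose-responsive MLXIP and MLXIPL, and MGA, a large repressor that binds MAX. Of these 4, 1 rose and 1 fell in each BPH-1 comparison, a share near the 59.8% and 37.7% called of all genes (median log2 change 0.02 against 0.00 for all genes with C-Raf, and −0.36 against 0.07 in the metastasis-derived lines). MLX rose with C-Raf from 71 ± 0.96 to 83.6 ± 0.84 CPM (0.24, adjusted p = 2.2e-07) and fell to 45.4 ± 8.84 CPM in the metastasis-derived lines (−0.82, adjusted p = 0.019). MLXIPL fell with C-Raf from 4.67 ± 0.27 to 2.68 ± 0.37 CPM (−0.80, adjusted p = 3.8e-06). MGA rose in the metastasis-derived lines from 67.8 ± 1.97 to 147 ± 29.4 CPM (1.18, adjusted p = 0.0079). In RWPE-1 none of the 4 passed by edgeR or DESeq2, nor at an unadjusted p under 0.05, and for MGA (1.26, adjusted p = 1.1e-04) and MLX (−1.04, adjusted p = 3.4e-04) the difference between the cell lines passed. Between C-Raf cells, MGA (1.66) and MLXIP (0.70) were higher and MLX (−0.48) lower in RWPE-1.

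The list of 24 MYC cofactors, corepressors and turnover factors had 8 higher and 8 lower in BPH-1 with C-Raf and 2 higher and 6 lower in the BPH-1 metastasis-derived lines (median 0.34 against 0.07 for all genes, and −0.05 without TMM factors). These are 66.7% and 33.3% of the list, near the 59.8% and 37.7% of all genes. Of all genes, 30.4% were higher and 29.4% lower with C-Raf, and 20.9% and 16.8% in the metastasis-derived lines. PIM1, a kinase that cooperates with MYC, rose from 19.9 ± 1.00 CPM in vector controls to 30.4 ± 0.60 CPM with C-Raf (0.62, adjusted p = 1.4e-11) and to 179 ± 67.0 CPM in the metastasis-derived lines (2.62, adjusted p = 0.0032). In RWPE-1 PIM1 was 44.2 CPM in the vector library, 60.7 ± 8.04 CPM with C-Raf and 33.9 ± 6.74 CPM in the metastasis-derived lines, and the difference between the cell lines was 3.41 (adjusted p = 1.4e-06). FBXW7, the ubiquitin ligase subunit that marks MYC for breakdown, rose at both BPH-1 steps, by 0.32 (adjusted p = 4.2e-06) and 1.78 (adjusted p = 0.018). RUVBL1, an ATPase that MYC recruits, fell in the metastasis-derived lines from 209.9 ± 3.08 to 63.1 ± 18.4 CPM (−1.68, adjusted p = 0.0042). HUWE1, another ligase of MYC, fell with C-Raf (−0.25, adjusted p = 1.5e-07). In RWPE-1 none of the 24 passed by edgeR, 3 had an unadjusted p under 0.05 and DESeq2 called 1, and the difference between the cell lines passed for 6 toward higher and 7 toward lower in BPH-1. Between C-Raf cells 6 were higher in RWPE-1, among them GSK3B (1.03), the kinase whose mark FBXW7 reads, and 5 lower, among them the acetyltransferase KAT2A (−0.97).

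Of 57 MYC-activated genes of nucleolar function and growth, 46 rose and 2 fell in BPH-1 with C-Raf (median 0.21 against 0.00 for all genes, 41 and 6 without TMM factors), where 30.4% of all genes were higher and 29.4% lower. In the BPH-1 metastasis-derived lines 1 rose and 25 fell (median −0.69 against 0.07), where 20.9% of all genes were higher and 16.8% lower. Leaving out any 1 library gave 0 to 5 higher and 11 to 38 lower. The difference between the cell lines passed for 34 of them, 3 toward higher and 31 toward lower in BPH-1, and by edgeR none passed in RWPE-1 (median 0.14 against 0.01), where 3 had an unadjusted p under 0.05 and DESeq2 called 1. With C-Raf the largest rises were of TFB2M, a mitochondrial transcription factor, from 26.4 to 38.02 CPM (0.53), RRP9 (0.48) and NOP16 (0.46), both of ribosome assembly. In the metastasis-derived lines the largest falls were of SRM, the spermidine synthase, from 191 ± 7.98 to 36.1 ± 13.1 CPM (−2.35, adjusted p = 0.0030), of the nucleoside transporter SLC29A2 (−2.07) and of the exosome subunit EXOSC5 (−1.94). Between C-Raf cells 24 were lower in RWPE-1, led by the uracil glycosylase UNG (−1.72), and 5 higher.

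All 13 classical MYC-activated genes passed in BPH-1 with C-Raf, 11 higher and 2 lower (median 0.22). Of all genes 59.8% passed there, 30.4% higher and 29.4% lower. ODC1, the first enzyme of polyamine synthesis, rose from 175 ± 3.44 to 268 ± 4.57 CPM (0.62, adjusted p = 2.6e-17), and the phosphatase CDC25A rose by 0.37. In the metastasis-derived lines 0 rose and 5 fell (median −0.63), where 20.9% of all genes were higher and 16.8% lower. These 5 are 38.5% of the list, against 37.7% of all genes called. Among them were CAD, the first enzyme of pyrimidine synthesis, from 202 ± 6.30 to 67.1 ± 4.61 CPM (−1.53, adjusted p = 0.0022), and the cyclin CCND2 (−1.71, adjusted p = 0.039). TERT, the telomerase catalytic subunit, fell from 4.99 ± 0.30 to 0.135 ± 0.10 CPM (−5.01, adjusted p = 0.0019), on 7, 1 and 2 counts in R069, R072 and R075, so that the size of this fall is imprecise. In RWPE-1 none of the 13 passed by edgeR or DESeq2, nor at an unadjusted p under 0.05. The difference between the cell lines passed for 6, all toward lower in BPH-1, and between C-Raf cells 2 were higher and 5 lower in RWPE-1.

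Of 6 classical MYC-repressed genes, 2 rose and 2 fell in BPH-1 with C-Raf, 66.7% of the list and near the 59.8% of all genes, and 4 rose and 0 fell in the BPH-1 metastasis-derived lines (median 1.65 against 0.07), where 20.9% of all genes were higher. NDRG1, which MYC is known to repress, rose from 132 ± 1.68 to 1234 ± 659 CPM (3.30, adjusted p = 0.0037), after a smaller rise of 0.40 with C-Raf. CEBPA, a differentiation factor, fell with C-Raf (−0.90) and rose from 2.72 ± 0.42 to 21.9 ± 13.5 CPM in the metastasis-derived lines (3.08, adjusted p = 0.011), and the cell cycle inhibitor CDKN2B rose by 1.94 (adjusted p = 0.0083). The difference between the cell lines passed for 5 of the 6. In RWPE-1 none passed by edgeR or DESeq2, nor at an unadjusted p under 0.05, and NDRG1 was 186 CPM in the vector library, 788 ± 421 CPM with C-Raf and 525.9 ± 198 CPM in the metastasis-derived lines. Between C-Raf cells 1 was higher (NDRG1, 2.59) and 1 lower (NDRG2, −2.50) in RWPE-1. In the pooled comparisons none of the 104 genes of these 5 lists passed by edgeR, while 4 (C-Raf against vector) and 22 (metastasis-derived against C-Raf) had an unadjusted p under 0.05 and DESeq2 called 1 and 3. What the counts of these lists owe to MYC or MXD1 was not tested.

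**Figure D5:**
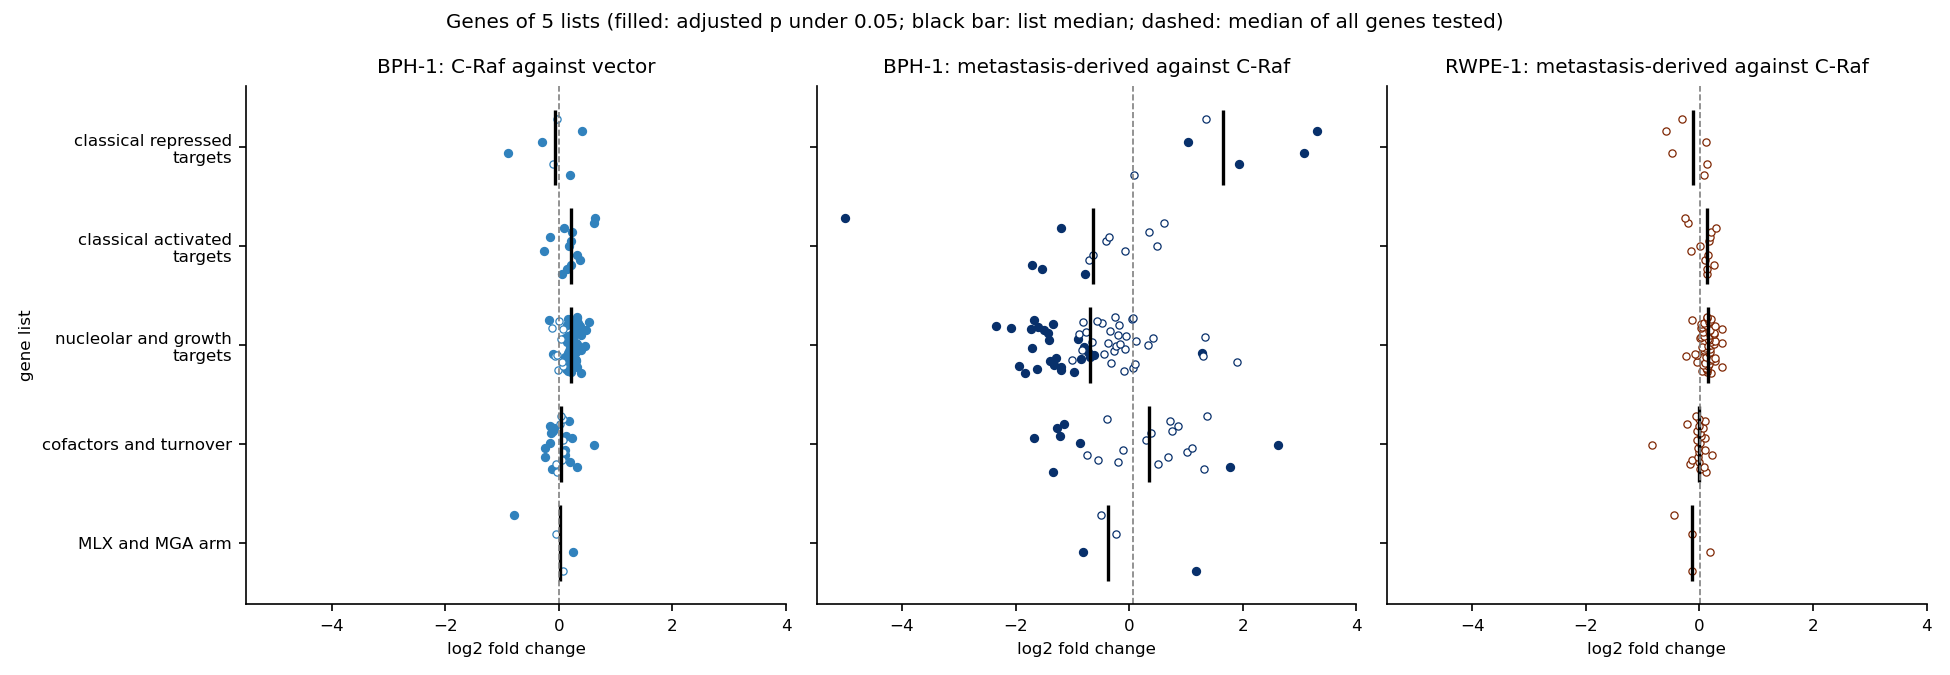
Log2 fold change (x axis) of the genes of 5 lists (y axis) in 3 comparisons. Each point is a gene, filled where it passed the adjusted p threshold of 0.05, with the list median as a black bar and the median of all genes tested as a dashed line. The list medians of activated targets were 0.21 and 0.22 for C-Raf in BPH-1, −0.69 and −0.63 in the BPH-1 metastasis-derived lines and 0.14 and 0.14 in the RWPE-1 metastasis-derived lines.

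The genes whose pattern was most like each member were found among 9686 genes by the Pearson correlation of log2 CPM over the 21 deep libraries, after centring within each cell line. The points share library depth and scaling, and the 3 BPH-1 metastasis-derived libraries weigh heavily, so the values are descriptive. For MXD1 they were KDM7A (r = 0.99), RIOK3 (0.98) and PPP4R2 (0.98), and for MNT they were SMG6 (0.97), PLEKHM1 (0.97) and MAPK7 (0.96). For MXD4 they were UBFD1 (0.95), TBC1D16 (0.95) and CBX2 (0.94), for MXI1 NOTCH1 (0.94), CCDC130 (0.93) and PHF8 (0.92), and for MYC PCBP1 (0.92), MLX (0.91) and CPOX (0.90). MYCL was most like KLK7 (0.86), MAX most like CKAP4 (0.87) and MXD3 most like RALGPS2 (0.80). SMG6 lies close to MNT on chromosome 17, and MLX is the one gene of the wider network among them. Between members, MXD1 and MXD4 had r = −0.87, MAX and MXD3 −0.84, MXD1 and MNT 0.72, and MYC and MXD1 −0.60.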

How the data were processed

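Expression of the 9 members was taken from 4 tables of RSEM expected counts, which the authors deposited at gene level. The submitters' processing notes name cutadapt, FastQC, STAR, RSEM and hg38. The annotation and counting by strand are not given in the sources used here. All 24 columns were used. Expected counts were rounded, and symbols were typed and placed with GENCODE version 29. The overexpressed kinase's own transcript is not reported here.

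Protein-coding genes passing filterByExpr were scaled by TMM and fitted with edgeR 4.0.16 (R 4.3.3) quasi-likelihood models, with the Benjamini-Hochberg threshold of 0.05 over all genes tested. BPH-1 and RWPE-1 were fitted apart, together with an interaction, and together with terms for line and stage. The 21 libraries of over 1000000 protein-coding counts entered. SE was derived from the F statistic. The script was tested on simulated data.

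The members and lists were chosen with earlier results of these data known. The lists are hand-written and hold 104 genes. Named list genes are the 3 or fewer largest absolute log2 changes past the threshold in each list and comparison. For likeness, members of 1 CPM or more in mean were set against genes of 10 CPM or more. Markers of basal and luminal epithelium, fibroblasts, haematopoietic and endothelial cells were checked.

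Alternatives were RLE size factors, DESeq2 1.42.0, no filter, at least 10 counts in every library, all symbols, each replicate left out, the 3 low-depth libraries added, a replicate block, a table term or single table, 2 stages only, and ComBat-seq (sva 3.50.0). Library totals without TMM factors were added after seeing the data. Intervals (scipy 1.17.1) cover counting error only.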

Additional observations from a re-analysis of the deposited data

Results flagged for a closer look

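Of 16 groups of 4 to 10 libraries examined for a library far from the others, 2 held one, where chance gives about 1 in 20. MYCL was highest in RWPE-1 C-Raf library 1, at 2.999 CPM against 1.28 to 1.56 CPM in the other 3 C-Raf libraries, and that library stands in another table than the other 3. MXD1 was highest in the RWPE-1 bone line Bone4, at 50.2 CPM against 26.7 to 31.8 CPM in the other 6 metastasis-derived lines.

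The effect of metastasis differed between BPH-1 and RWPE-1 by the interaction test for 4 members. The difference, BPH-1 minus RWPE-1 on the log2 scale, was 3.33 for MXD1, 0.85 for MNT, −1.39 for MYC and −1.07 for MXD4. In BPH-1 the 3 metastasis-derived lines stand in another table than the C-Raf cells, which cannot be told apart from the stage.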

How the results depend on the processing

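Leaving out 1 library at a time gave 1 to 6 members called for BPH-1 metastasis-derived against C-Raf (1 without any C-Raf library, 6 without R075), with 1958 to 8303 genes called in all, and 2 to 5 members between C-Raf cells of the 2 lines. It gave 4 to 40 genes for RWPE-1 metastasis-derived against C-Raf, 38 to 287 for pooled C-Raf against vector and 98 to 478 for pooled metastasis-derived against C-Raf. With the 3 low-depth libraries, BPH-1 metastasis-derived against C-Raf had 1 member and 2106 genes called, the interaction 4171 genes, the C-Raf cells of the 2 lines 4948 and pooled C-Raf against vector 37. For RWPE-1 metastasis-derived against C-Raf (13 genes called), DESeq2 called 168, at least 10 counts in every library 5, all symbols 20, the larger table alone 2 and library totals without TMM factors 7. For pooled C-Raf against vector (124), DESeq2 called 457, at least 10 counts 68, no TMM factors 72 and the 2 stages alone 1649 with 2 members. For pooled metastasis-derived against C-Raf (381), DESeq2 called 938, at least 10 counts 17, all symbols 1781 and the 2 stages alone 168.

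With 1 library left out, MAX ran from −0.021 to 0.073 for C-Raf in BPH-1, −0.16 to 0.016 for metastasis in BPH-1 and −0.065 to 0.086 in RWPE-1. MXI1 ran from −0.30 to 1.28 for metastasis in BPH-1 and from −0.53 to 1.00 in the interaction, the lowest both times without R072 (interaction adjusted p = 0.032). MYCL ran from −0.31 to 0.17 and MXD1 from −0.23 to 0.058 for metastasis in RWPE-1, and MYCL from −0.93 to 0.13 for pooled C-Raf. Without TMM factors MAX was −0.032 for C-Raf in BPH-1, with a table term MXD1 was 0.031 for metastasis in RWPE-1, and with the low-depth libraries MAX was 4.38 for metastasis in BPH-1 and 4.60 in the interaction (adjusted p = 0.020). The cause was not tested. Of all values of single members under the alternatives, 848 kept direction and side of the threshold, 17 lost and 15 gained a call and 14 turned sign. The same replicate numbers stand in BPH-1 vector and C-Raf libraries, but same-numbered libraries did not deviate together (r = 0.04, −0.05 and −0.04). A replicate block called 7678 genes and 4 members, against 7904 and 4. The 3 low-depth libraries cannot show genes under about 6.46 to 27.0 CPM.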
